A study of Mus musculus with 10 samples.

Results

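Notch receptors, their ligands and the fringe glycosyltransferases were described in cells sorted as NG2+ and cells sorted as GFAP+ from the dorsal brain of mouse embryos. The members were chosen by gene symbol: Notch1, Notch2 and Notch3 as receptors, Dll1, Dll3, Jag1 and Jag2 as ligands, and Lfng, Mfng and Rfng as fringes, which makes 10 of the 53801 genes in the deposited count table. Both groups were wild type (WT), had StarTrack, reporter plasmids that mark a progenitor and its offspring, delivered to the embryo's brain by electroporation in utero at embryonic day 12, and were collected at embryonic day 14. The labels give the cell type as neural stem cells, and there were 5 libraries of NG2+ cells and 5 of GFAP+ cells, all in batch 1. The labels state neither the strain nor how many embryos made up a library, so p-values measure the spread between these libraries, which may be technical.

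In Notch signalling a membrane-bound ligand on one cell pulls on a receptor of its neighbour, the receptor is cut, and its intracellular part moves to the nucleus, where it binds RBPJ and Mastermind proteins and turns on Hes and Hey genes. In the embryonic cortex the pathway keeps radial glia in a progenitor state, and intermediate progenitors and newborn neurons carry much of the ligand. Fringes are Golgi enzymes that add N-acetylglucosamine to O-fucose on the receptors' EGF repeats and so alter how a receptor answers Delta and Jagged ligands. Dll3 differs from the other ligands in being held mostly inside the cell and in not activating receptors of neighbouring cells.

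None of the 10 members passed the test between NG2+ and GFAP+ cells, against 0.148% of the 16187 genes tested (24 genes; edgeR's quasi-likelihood test with Benjamini-Hochberg adjustment, call at an adjusted p of 0.05). All 10 members were tested, and 0 were called higher and 0 lower, against 0.0741% of all genes in each direction. Their log2 fold changes, NG2 minus GFAP, were negative in 8 members and positive in 2, with a median of −0.35, while 51.5% of all genes tested had a negative one and the median over all genes was −0.0097. At an unadjusted p of 0.05, edgeR counted 5 members, all lower in NG2+ cells (Notch1, Notch2, Dll1, Dll3 and Lfng), where 6.33% of all genes tested were counted in that direction and 12.8% in either. In no member were the 5 NG2 and the 5 GFAP libraries without overlap in CPM, the reads of a gene scaled to a common library size with TMM factors, which held for 3.28% of all genes tested. In bulk RNA, fewer cells of a type and less RNA per cell cannot be told apart.

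Library totals ran between 14256176 and 17569730 assigned reads in NG2 libraries and between 12945436 and 16189859 in GFAP libraries. Library NG2 5 stood apart, with 18903 genes holding a read against 22988 to 24444 in the other 9 libraries, so the members are given with and without it where that matters. Cspg4, which encodes NG2, averaged 6.75 ± 1.47 CPM in NG2+ cells and 1.07 ± 0.356 CPM in GFAP+ cells (SD, n = 5 each), and it passed the test (log2 fold change 2.64, SE 0.30, edgeR adjusted p = 0.00256 with Benjamini-Hochberg adjustment). With replicate number as a block in the edgeR fit, Cspg4 was 2.66 and did not pass (adjusted p = 0.0574 with Benjamini-Hochberg adjustment). Gfap held only 6 reads in all NG2 libraries together and 10 in all GFAP libraries, so it could not check the label. The radial glia markers fixed for the label of neural stem cells were present, with a sum over 12 genes of 1388 to 2252 CPM in NG2+ cells and 2085 to 3128 CPM in GFAP+ cells. Neuronal markers were present as well, with a sum over 8 genes of 4893 to 6953 CPM in NG2+ cells and 3943 to 5066 CPM in GFAP+ cells.

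**Figure D1:**
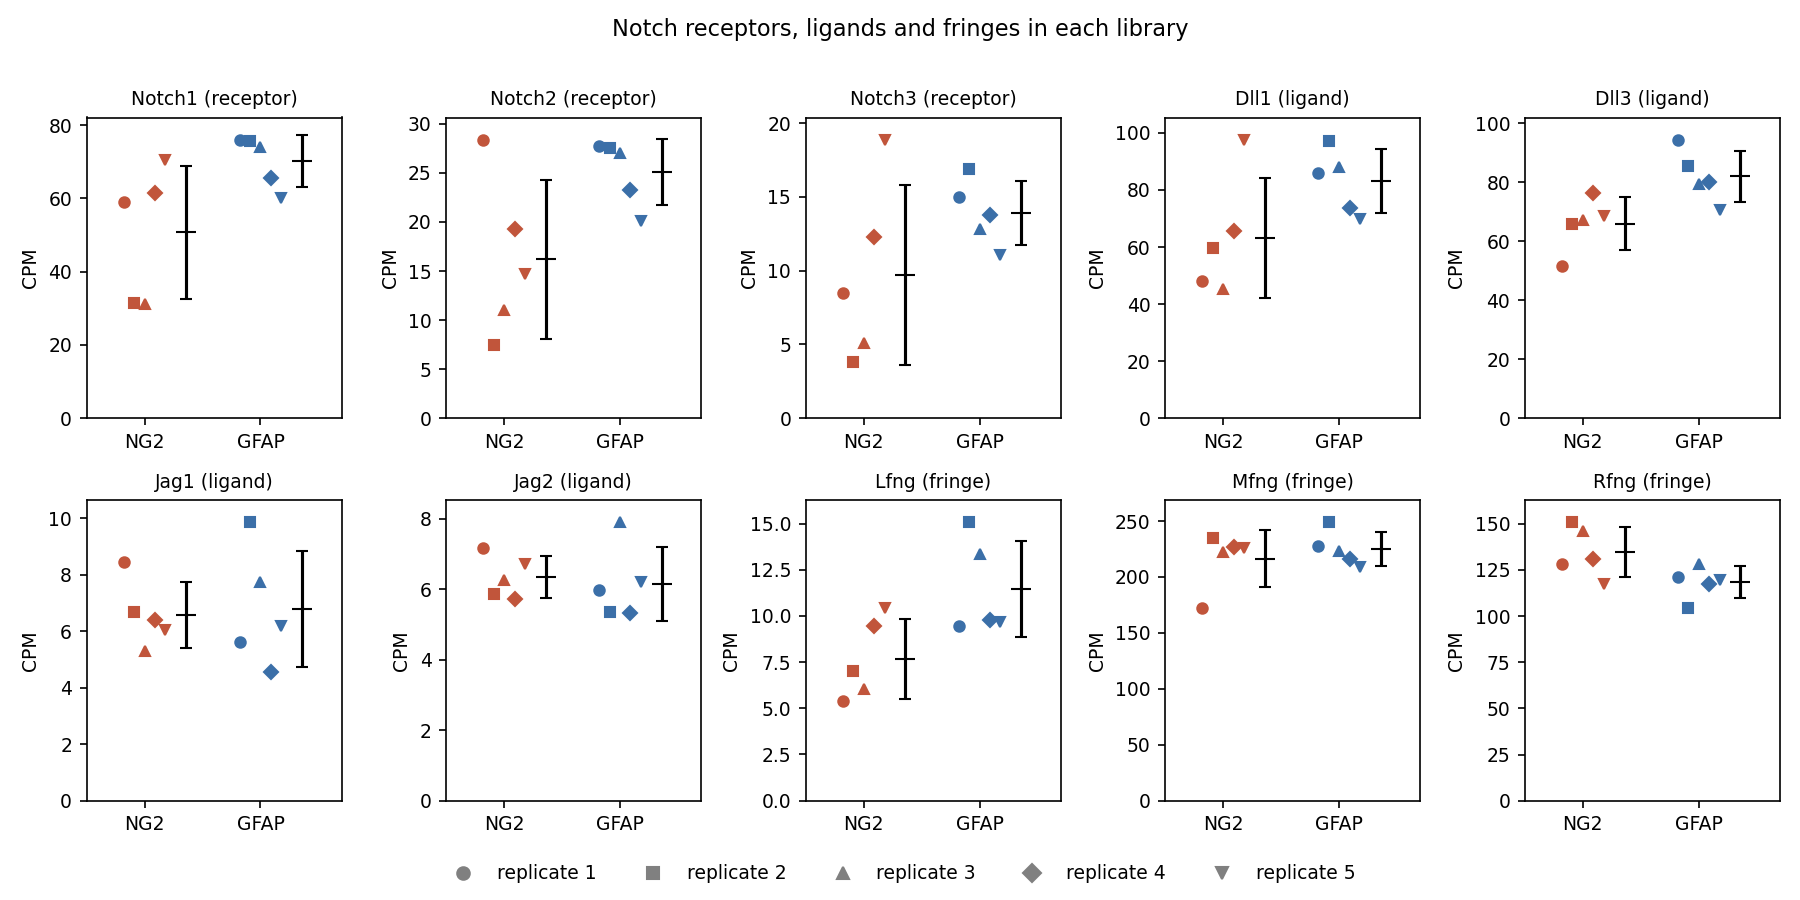
Scaled read counts (CPM, linear axes from 0) of each of the 10 members in the 5 NG2 libraries (left, red) and the 5 GFAP libraries (right, blue); the marker shape gives the replicate number, and the bars show mean and SD. Notch1, Notch2 and Notch3 are spread widely among the NG2 libraries, with NG2 2 and NG2 3 low in all 3 receptors, and the groups overlap in every panel.

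**Figure D2:**
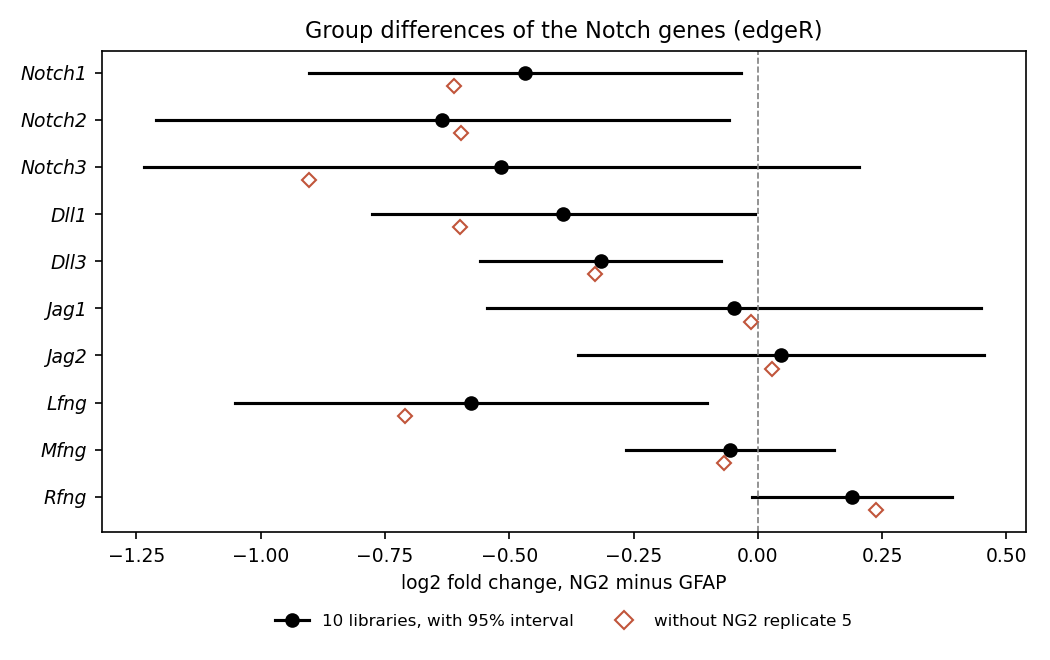
log2 fold change, NG2 minus GFAP, of each member from edgeR with all 10 libraries and its 95% confidence interval, beside the estimate without library NG2 5. The fold changes with all libraries run between −0.63 for Notch2 and 0.19 for Rfng, and the interval of Dll1 reaches to −0.01.

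The promoters of Lfng, Dll1 and Dll3 are shown because they hold a motif searched for here and belong to genes counted lower in NG2+ cells at the unadjusted threshold, a choice made after the search; those of Notch1 and Notch2, counted in the same direction, hold neither motif and are not printed. Each sequence is the 250 bases before the RefSeq start on GRCm38.p6, read 5′ to 3′ on the gene's strand, and the capitals mark CAGCTG, an E-box of the kind that proneural bHLH factors bind, and TGGGAA or its reverse complement TTCCCA, the core bound by RBPJ. The RefSeq start of Dll3 lies 453 bases inside the gene span of the count table, so all its printed bases lie within that span. The start of Lfng lies 21 bases inside its span.
Lfng, chr5:140607091-140607340 (+): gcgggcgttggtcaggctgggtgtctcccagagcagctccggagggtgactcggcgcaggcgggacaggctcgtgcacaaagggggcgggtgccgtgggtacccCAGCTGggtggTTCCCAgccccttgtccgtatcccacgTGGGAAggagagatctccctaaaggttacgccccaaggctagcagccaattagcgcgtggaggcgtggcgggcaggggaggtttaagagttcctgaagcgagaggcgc
Dll1, chr17:15376933-15377182 (−): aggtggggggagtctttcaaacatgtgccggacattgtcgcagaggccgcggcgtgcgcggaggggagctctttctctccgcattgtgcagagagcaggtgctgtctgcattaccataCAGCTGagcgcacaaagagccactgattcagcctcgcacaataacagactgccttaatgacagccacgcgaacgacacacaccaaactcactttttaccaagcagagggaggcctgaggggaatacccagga
Dll3, chr7:28301786-28302035 (−): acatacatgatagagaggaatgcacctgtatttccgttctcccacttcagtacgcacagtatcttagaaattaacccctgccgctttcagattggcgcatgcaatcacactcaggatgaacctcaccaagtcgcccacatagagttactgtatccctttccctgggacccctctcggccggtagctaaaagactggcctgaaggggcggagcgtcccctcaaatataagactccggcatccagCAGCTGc
RefSeq held promoters for 9 of the 10 members, in 10 entries, since Dll1 had 2 starts, and Mfng had no entry. CAGCTG, which reads alike on both strands, was present in 4 of those 9 members, namely Lfng, Dll1, Dll3 and Jag1, and so in 4 of the 10 entries, against 13.0% of all 32851 RefSeq entries of the same length. The other Dll1 entry, chr17:15375824-15376073, held neither motif. In Lfng its first base lay 146 bases before the start, in Dll1 132, in Jag1 82 and in Dll3 7. TGGGAA on either strand was present in Lfng alone, at 135 and 108 bases before the start, whereas 21.6% of all promoters held it and 2.77% held more than 1 copy. The motifs did not overlap each other, and a match is only a description of these letters.

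Receptors. Notch1, the receptor that maintains neural progenitors, had 59.1, 31.5, 31.3, 61.4 and 70.3 CPM in libraries NG2 1 to NG2 5, against 76.0, 75.5, 74.1, 65.6 and 60.0 CPM in GFAP 1 to GFAP 5. NG2 2 and NG2 3 lay at about the same low level, NG2 1 lay just under the lowest GFAP library, and NG2 4 and NG2 5 lay within the GFAP range. Notch1 averaged 50.7 ± 18.1 CPM in NG2+ cells and 70.3 ± 7.09 CPM in GFAP+ cells (SD, n = 5 each). Its log2 fold change was −0.47 (SE 0.20, 95% interval −0.90 to −0.03; edgeR adjusted p = 0.353 with Benjamini-Hochberg adjustment). Notch1 (ENSMUSG00000026923) lies at chr2:26457903-26516663 on the minus strand of GRCm38.p6, and its values rest on 450 to 1248 reads per library. Genes on the opposite strand share its span, of which 0610009E02Rik held the most reads, 199 beside the 9246 of Notch1, so its counts are uncertain to that extent.

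Notch2, a receptor that cortical progenitors express beside Notch1, had 28.4, 7.51, 11.0, 19.3 and 14.7 CPM in NG2 1 to NG2 5, against 27.7, 27.5, 27.0, 23.3 and 20.1 CPM in GFAP 1 to GFAP 5. NG2 1 was the highest of all 10 libraries, and the other 4 NG2 libraries lay below every GFAP library. Group means were 16.2 ± 8.11 CPM in NG2+ cells and 25.1 ± 3.35 CPM in GFAP+ cells (SD, n = 5 each). The log2 fold change of Notch2 was −0.63 (SE 0.27, 95% interval −1.21 to −0.06; edgeR adjusted p = 0.347 with Benjamini-Hochberg adjustment), and without NG2 1 it was −0.93. Notch2 (ENSMUSG00000027878, chr3:98013527-98150361, plus strand) shares its span with Gm42820, a gene on the same strand that held 309 reads over all libraries beside the 3129 of Notch2, so its counts are uncertain to that extent.

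Notch3, known in vascular mural cells and also present in neural progenitors, had 8.46, 3.79, 5.08, 12.3 and 18.9 CPM in NG2 1 to NG2 5, against 15.0, 16.9, 12.8, 13.8 and 11.1 CPM in GFAP 1 to GFAP 5. NG2 5 was the highest of the 10 libraries and NG2 2 the lowest, so the NG2 libraries enclosed the whole GFAP range. The means were 9.70 ± 6.10 CPM in NG2+ cells and 13.9 ± 2.19 CPM in GFAP+ cells (SD, n = 5 each), with a log2 fold change of −0.52 (SE 0.34, 95% interval −1.24 to 0.20; edgeR adjusted p = 0.555 with Benjamini-Hochberg adjustment). Single libraries changed the value: it was −0.90 without NG2 5, −0.31 without NG2 2 and −0.35 without NG2 3. In NG2 5, the library with the highest Notch3, the sum of 8 mural cell markers was 11.3 CPM, the lowest among the NG2 libraries, which reached 24.9 CPM. The sum was nearly as low in NG2 3 (11.7 CPM) and NG2 2 (12.1 CPM), the NG2 libraries with the lowest Notch3. GFAP libraries lay between 9.40 and 23.8 CPM, and the part of mural cells in the Notch3 values was not tested. Notch3 (ENSMUSG00000038146) lies at chr17:32120820-32166880 on the minus strand, and Gm17276 on the opposite strand held 6 reads beside the 1827 of Notch3.

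The 3 receptors were low together in NG2 2 and NG2 3. Relative to each gene's mean over the 10 libraries on the log2 CPM scale, Notch1 lay at −0.87 in NG2 2 and −0.88 in NG2 3, Notch2 at −1.33 in NG2 2 and −0.79 in NG2 3, and Notch3 at −1.46 in NG2 2 and −1.05 in NG2 3. The same libraries were low in the summed markers of radial glia, with 1388 CPM in NG2 2 and 1719 CPM in NG2 3 against 2167 to 2252 CPM in the other NG2 libraries. They were the highest libraries in the sum of neuronal markers, with 6129 CPM in NG2 2 and 6953 CPM in NG2 3 against 4893 to 5827 CPM in the other NG2 libraries. Interneuron lineage markers (6 genes, the Dlx and Gad genes) summed to 77.3 CPM in NG2 2 and 56.7 CPM in NG2 3, against 182, 187 and 183 CPM in NG2 1, NG2 4 and NG2 5, and to between 99.2 and 180 CPM in GFAP libraries. The part of these markers in the receptors' values was not tested. Without NG2 2 the log2 fold change of Notch1 was −0.33, without NG2 3 it was likewise −0.33, and with limma's voom and sample weights it was −0.31. It moved the other way on leaving out NG2 5 (−0.61), NG2 4 (−0.54) or NG2 1 (−0.52).

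**Figure D3:**
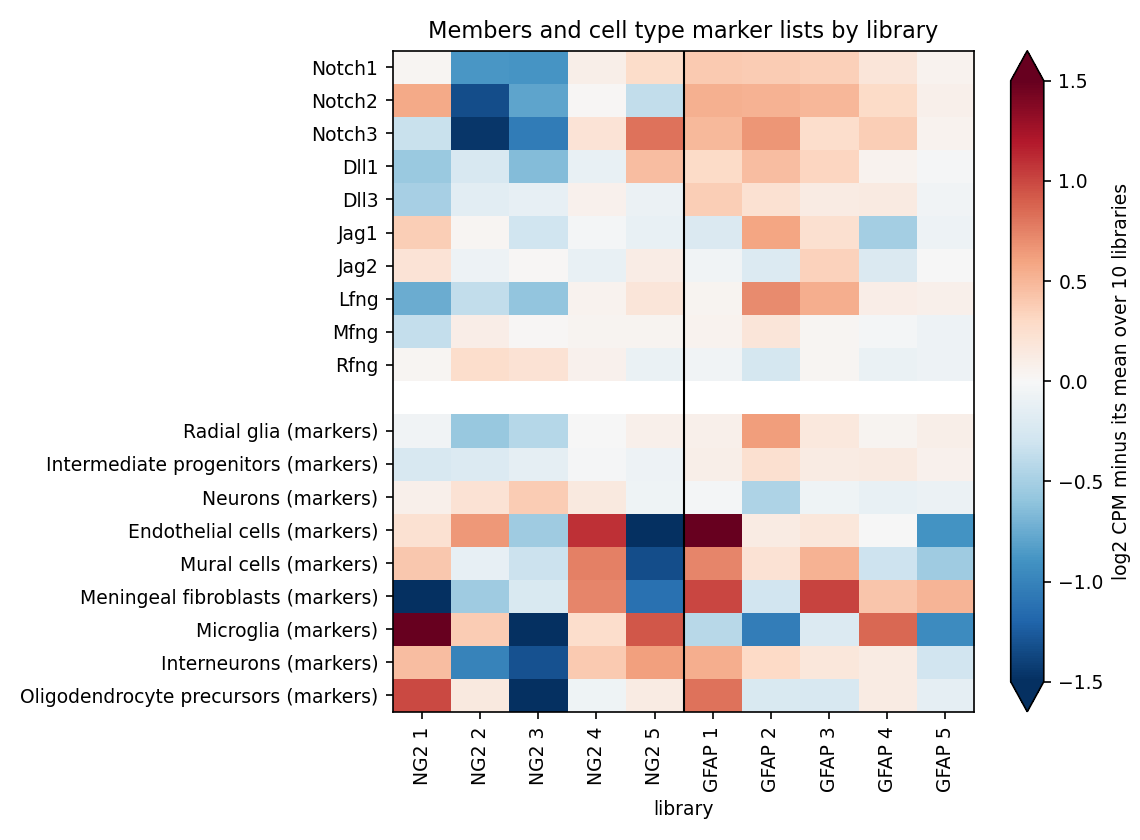
log2 CPM of each member and of the mean over the tested genes of each marker list, minus its mean over the 10 libraries (colour, cut at −1.5 and 1.5), with NG2 libraries left of the line and GFAP libraries right of it. The 3 receptors share their low values in NG2 2 and NG2 3 with radial glia and interneuron markers, and Notch3 is highest in NG2 5, where mural and endothelial markers are low.

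Per length, Notch1 was the most abundant of the receptors. On the deposited FPKM scale the level of Notch1 was 3.54 ± 1.26 in NG2+ cells and 4.87 ± 0.495 in GFAP+ cells, that of Notch2 was 1.49 ± 0.752 in NG2+ cells and 2.30 ± 0.308 in GFAP+ cells, and that of Notch3 was 1.20 ± 0.748 in NG2+ cells and 1.71 ± 0.270 in GFAP+ cells (SD, n = 5 each). The summed FPKM of the 3 receptors was 6.23 ± 2.43 in NG2+ cells and 8.87 ± 1.02 in GFAP+ cells, and the ranges of 3.37 to 8.56 in NG2+ cells and 7.34 to 9.85 in GFAP+ cells overlapped. Within that sum, the share of Notch1 was 57.8% ± 4.61 in NG2+ cells and 54.9% ± 1.30 in GFAP+ cells, the share of Notch2 24.0% ± 6.67 in NG2+ cells and 25.9% ± 0.771 in GFAP+ cells, and the share of Notch3 18.2% ± 5.64 in NG2+ cells and 19.2% ± 1.53 in GFAP+ cells. The mix of receptors varied more among NG2 libraries: the share of Notch2 was 33.6% in NG2 1 and 15.8% in NG2 5, and that of Notch3 was 27.1% in NG2 5.

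Ligands. Dll1, the Delta ligand that activates receptors on neighbouring cells, had 48.0, 59.8, 45.2, 65.6 and 97.6 CPM in NG2 1 to NG2 5, against 86.1, 97.3, 88.2, 73.7 and 69.7 CPM in GFAP 1 to GFAP 5. NG2 1 to NG2 4 lay below every GFAP library, and NG2 5 lay above every one of them. Dll1 averaged 63.2 ± 21.0 CPM in NG2+ cells and 83.0 ± 11.2 CPM in GFAP+ cells (SD, n = 5 each). For Dll1 the log2 fold change was −0.39 (SE 0.18, 95% interval −0.78 to −0.01; edgeR adjusted p = 0.385 with Benjamini-Hochberg adjustment). Dll1 was the only member past the threshold under any of the 18 alternatives: without NG2 5 its log2 fold change was −0.60 (edgeR adjusted p = 0.0471 with Benjamini-Hochberg adjustment), where 0.71% of the genes tested passed, and with limma's voom and sample weights it was −0.37 (adjusted p = 0.0422 with Benjamini-Hochberg adjustment), where 8.9% passed. Over all alternatives the adjusted p of Dll1 lay between 0.0422 and 0.631. Dll1 (ENSMUSG00000014773) lies at chr17:15367354-15376872 on the minus strand, and A930024N18Rik on the opposite strand held 122 reads beside the 11199 of Dll1.

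Dll3, the divergent Delta relative that can hold back Notch signalling within its own cell, had 51.6, 65.6, 67.1, 76.4 and 68.5 CPM in NG2 1 to NG2 5, against 94.3, 85.4, 79.5, 80.0 and 70.7 CPM in GFAP 1 to GFAP 5. Of the NG2 libraries, 4 lay below every GFAP library and NG2 4 lay within their range, so the overlap rested on NG2 4 and GFAP 5. Mean levels were 65.8 ± 9.00 CPM in NG2+ cells and 82.0 ± 8.70 CPM in GFAP+ cells (SD, n = 5 each). The log2 fold change of Dll3 was −0.32 (SE 0.11, 95% interval −0.56 to −0.07; edgeR adjusted p = 0.289 with Benjamini-Hochberg adjustment), and leaving out any 1 library kept it between −0.37 and −0.24, while voom with sample weights gave −0.19. Dll3 (ENSMUSG00000003436) lies at chr7:28293553-28302238 on the minus strand.

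The Jagged ligands were low in both groups. Jag1 had 8.46, 6.68, 5.29, 6.40 and 6.03 CPM in NG2 1 to NG2 5, against 5.61, 9.86, 7.74, 4.55 and 6.20 CPM in GFAP 1 to GFAP 5, and Jag2 averaged 6.34 ± 0.603 CPM in NG2+ cells and 6.14 ± 1.05 CPM in GFAP+ cells (SD, n = 5 each). All 5 NG2 libraries lay inside the GFAP range for both genes. Fold changes on the log2 scale were −0.05 for Jag1 (95% interval −0.55 to 0.45) and 0.05 for Jag2 (95% interval −0.36 to 0.46), so differences of up to those bounds were not resolved. Jag1 (ENSMUSG00000027276, chr2:137081456-137116644, minus strand) rests on 65 to 157 reads per library and Jag2 (ENSMUSG00000002799, chr12:112907819-112929776, minus strand) on 76 to 119. Mir6941, within Jag2, held 2 reads beside the 944 of Jag2.

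Per length, the Delta ligands far exceeded the Jagged ligands in both groups. On the FPKM scale the level of Dll3 was 23.0 ± 3.08 in NG2+ cells and 28.4 ± 2.98 in GFAP+ cells, and that of Dll1 was 14.9 ± 4.87 in NG2+ cells and 19.4 ± 2.66 in GFAP+ cells (SD, n = 5 each). Jag1 stood at 1.12 ± 0.204 FPKM in NG2+ cells and 1.15 ± 0.353 FPKM in GFAP+ cells, and Jag2 at 0.905 ± 0.0873 FPKM in NG2+ cells and 0.870 ± 0.150 FPKM in GFAP+ cells. Dll3 was above Dll1 in FPKM in all 10 libraries, and together the Jagged ligands made up only a small share of the ligand sum: Jag1 2.91% ± 0.957 in NG2+ cells and 2.30% ± 0.591 in GFAP+ cells, and Jag2 2.33% ± 0.552 in NG2+ cells and 1.76% ± 0.353 in GFAP+ cells. The share of Dll1 ran wide among NG2 libraries, with 29.7% in NG2 3 and 47.0% in NG2 5, around means of 36.7% ± 6.32 in NG2+ cells and 38.9% ± 2.15 in GFAP+ cells.

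Fringes. Mfng was the most abundant of all members per length, at 75.8 ± 8.67 FPKM in NG2+ cells and 78.1 ± 5.41 FPKM in GFAP+ cells (SD, n = 5 each), and 95.2% of the genes tested lay below it in mean FPKM. In CPM it had 172, 235, 222, 227 and 226 in NG2 1 to NG2 5, against 228, 249, 224, 216 and 209 in GFAP 1 to GFAP 5. NG2 1 lay below the other 9 libraries, and the other NG2 libraries lay within the GFAP range. For Mfng the log2 fold change was −0.06 (SE 0.10, 95% interval −0.27 to 0.15), the narrowest interval but one among the members, and it was 0.019 without NG2 1. Mfng (ENSMUSG00000018169) lies at chr15:78755882-78773475 on the minus strand.

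Rfng, the second most abundant member, had 128, 151, 146, 131 and 118 CPM in NG2 1 to NG2 5, against 121, 105, 128, 117 and 119 CPM in GFAP 1 to GFAP 5. NG2 2, NG2 3 and NG2 4 lay above every GFAP library, and NG2 1 and NG2 5 lay within the GFAP range. Its log2 fold change was 0.19 (SE 0.09, 95% interval −0.01 to 0.39; edgeR adjusted p = 0.418 with Benjamini-Hochberg adjustment), and it stayed positive in all alternatives, between 0.15 and 0.24 on leaving out a library. Rfng (ENSMUSG00000025158) lies at chr11:120780746-120784207 on the minus strand.

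Lfng, the fringe known for its cyclic expression in somite formation and also made by radial glia, was the least abundant fringe. Its CPM were 5.39, 7.02, 6.05, 9.47 and 10.4 in NG2 1 to NG2 5, against 9.45, 15.1, 13.4, 9.80 and 9.67 in GFAP 1 to GFAP 5. NG2 1, NG2 2 and NG2 3 lay below every GFAP library, and NG2 4 lay among the lower GFAP libraries, GFAP 1, GFAP 4 and GFAP 5. NG2 5 lay above those and below GFAP 2 and GFAP 3, which stood above the rest. Lfng had a log2 fold change of −0.58 (SE 0.22, 95% interval −1.05 to −0.10; edgeR adjusted p = 0.310 with Benjamini-Hochberg adjustment), and leaving out any 1 library kept it between −0.71 and −0.46, while voom with sample weights gave −0.30. Lfng (ENSMUSG00000029570, chr5:140607320-140615545, plus strand) rests on 79 to 240 reads per library.

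The mix of fringes was mostly Mfng and Rfng in both groups. By summed FPKM, Mfng held 57.0% ± 2.89 in NG2+ cells and 60.3% ± 2.57 in GFAP+ cells, Rfng 40.7% ± 3.46 in NG2+ cells and 36.2% ± 3.00 in GFAP+ cells, and Lfng 2.30% ± 0.639 in NG2+ cells and 3.47% ± 0.678 in GFAP+ cells (SD, n = 5 each). The summed FPKM of the fringes was 133 ± 11.8 in NG2+ cells and 129 ± 4.97 in GFAP+ cells. Each share overlapped between the groups, as did the shares of every receptor and ligand.

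**Figure D4:**
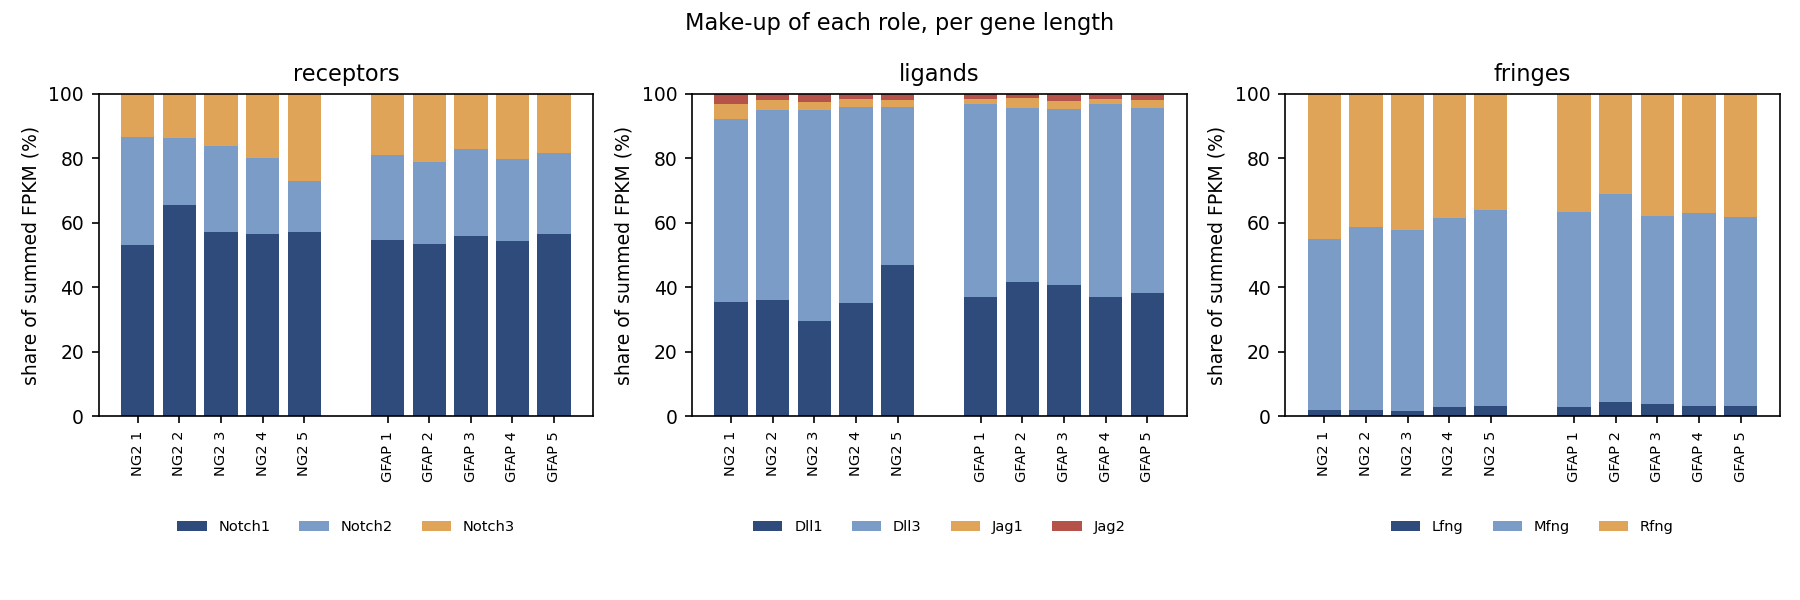
Share of the summed FPKM of receptors, ligands and fringes taken by each member, as a percentage for each library, with NG2 libraries left and GFAP libraries right. Notch1, Dll3 and Mfng take the largest mean share of their role in both groups, and the shares vary more among NG2 libraries than among GFAP libraries for the receptors.

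Ordered by mean FPKM over the 10 libraries, the levels were 77.0 for Mfng, 50.4 for Rfng, 25.7 for Dll3, 17.1 for Dll1, 4.20 for Notch1, 3.78 for Lfng, 1.90 for Notch2, 1.45 for Notch3, 1.14 for Jag1 and 0.887 for Jag2. The ranges over libraries separated Mfng from Rfng, Rfng from Dll3, and Dll1 from Notch1. Neighbours further down were not separated: Notch1 was above Lfng in 6 of 10 libraries, and Notch3 above Jag1 in 7. The receptors thus stood well below the Delta ligands and the major fringes in these cells, on the FPKM scale. That scale divides by the deposited gene lengths, 14232, 10782 and 8044 bases for Notch1, Notch2 and Notch3. The lengths were 4219 bases for Dll1, 2850 for Dll3, 2839 for Mfng and 2489 for Rfng. In CPM, Notch1, Notch2 and Notch3 averaged 60.5, 20.7 and 11.8, against 73.1 for Dll1, 73.9 for Dll3, 127 for Rfng and 221 for Mfng. How evenly reads covered these lengths was not tested.

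Likeness between profiles was measured as the root mean square difference over the 10 libraries of log2 CPM, each gene's own mean subtracted, among 10232 protein-coding genes with a mean of at least 5 CPM. Among the closest to Notch1 were Gli3 (0.120), a transcription factor gene of the Hedgehog pathway, and Tns1 (0.155), where the spread of Notch1 itself was 0.458. Closest to Notch2 (0.613) were Kbtbd11 (0.195), Mob3b (0.254) and Kirrel (0.265), and closest to Notch3 (spread 0.702) were Tanc1 (0.254), Grik1 (0.265) and Megf10 (0.281). For Dll1 (0.375) they were Smo (0.106), which encodes the Hedgehog signal transducer, Ptpru (0.129) and Ajuba (0.131), and for Dll3 (0.229) Slc2a1 (0.109), Ehmt2 (0.124) and Rilpl1 (0.125). For Lfng (0.436) they were Ttyh1 (0.176), Dll1 (0.184) and Prr11 (0.193), so a ligand of the pathway was among the nearest genes. The profiles of Jag1, Jag2, Mfng and Rfng were flatter, with spreads of 0.308, 0.169, 0.134 and 0.148, and their nearest genes were Tmtc4 (0.152), Trappc10 (0.1004), Grk6 (0.0485) and Smarcd3 (0.0572). These distances describe 10 libraries that the labels put in batch 1, and all of them include the differences between groups.

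The other genes of the pathway were taken from 6 lists that hold 69 genes of the table, 64 of which were tested. None passed the test in either direction (0 higher and 0 lower), where edgeR with Benjamini-Hochberg adjustment called 0.148% of all genes. At an unadjusted p of 0.05 edgeR counted 2 of the 64 higher and 8 lower in NG2+ cells. Over all 16187 genes tested it counted 1044 higher and 1025 (6.33%) lower. Of the 64, 28 had a positive and 36 a negative log2 fold change, with a median of −0.04. The groups did not overlap in 5 of the 64, where 3.28% of all genes tested did so.

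Among the other receptors and ligands, 5 of 8 tested genes had a positive log2 fold change, and the median was 0.15; it was −0.12 with the stricter filter, −0.056 with voom and −0.098 without NG2 5. Dner, a neuronal transmembrane protein with EGF repeats that has been described as a Notch ligand, had 144 ± 15.1 CPM in NG2+ cells (130 to 161) and 99.4 ± 11.8 CPM in GFAP+ cells (85.4 to 118; SD, n = 5 each). Every NG2 library was above every GFAP library. The log2 fold change of Dner was 0.53 (SE 0.10, edgeR adjusted p = 0.0652 with Benjamini-Hochberg adjustment). Dner passed under 5 alternatives, among them DESeq2 (adjusted p = 6.28e-04 with Benjamini-Hochberg adjustment) and edgeR without NG2 5 (adjusted p = 0.0435 with the same adjustment). With DESeq2, 1.05% of the 31012 genes that had a p-value passed, a wider set than the genes tested with edgeR. Notch4, the receptor best known from endothelium, had 5.14 ± 0.672 CPM in NG2+ cells (4.56 to 5.90) and 6.52 ± 0.489 CPM in GFAP+ cells (5.97 to 7.06), again without overlap (log2 fold change −0.34, SE 0.19, edgeR adjusted p = 0.468 with Benjamini-Hochberg adjustment). Mfap2, a microfibril protein, averaged 418 ± 43.3 CPM in NG2+ cells and 491 ± 35.9 CPM in GFAP+ cells.

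The enzymes that glycosylate the EGF repeats beside the fringes all had a negative log2 fold change (6 of 6 tested, median −0.20; −0.37 with the stricter filter and −0.046 with voom). Pofut1, which adds the O-fucose that fringes extend, had 19.9 ± 3.04 CPM in NG2+ cells (16.9 to 24.6) and 28.9 ± 1.57 CPM in GFAP+ cells (26.4 to 30.2; SD, n = 5 each). No NG2 library reached the lowest GFAP library in Pofut1. Its log2 fold change was −0.54 (SE 0.13, edgeR adjusted p = 0.124 with Benjamini-Hochberg adjustment), and it passed with DESeq2 (adjusted p = 0.0110) and with voom (adjusted p = 0.00981), both with Benjamini-Hochberg adjustment. Poglut1, the O-glucosyltransferase, averaged 102 ± 9.17 CPM in NG2+ cells and 104 ± 8.90 CPM in GFAP+ cells, and Gxylt1, which extends O-glucose with xylose, 21.2 ± 4.59 CPM in NG2+ cells and 27.2 ± 2.38 CPM in GFAP+ cells.

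The cleavage machinery lay close to equal, with 6 positive and 4 negative log2 fold changes among 10 genes and a median of 0.06, which was −0.010 with voom and −0.0096 without NG2 2. Adam10, the protease that makes the first cut of the activated receptor, averaged 56.6 ± 9.92 CPM in NG2+ cells and 61.2 ± 3.65 CPM in GFAP+ cells. Ncstn, a subunit of the gamma-secretase that makes the last cut, averaged 196 ± 35.3 CPM in NG2+ cells and 190 ± 11.4 CPM in GFAP+ cells (SD, n = 5 each).

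Genes of ubiquitination and trafficking were divided, with 9 positive and 7 negative log2 fold changes among 16 and a median of 0.02, which was −0.024 with library size as the only scaling and −0.049 without NG2 5. The most abundant were Dtx3, at 243 ± 22.8 CPM in NG2+ cells and 240 ± 33.2 CPM in GFAP+ cells, Numbl, a Numb-like adaptor, at 122 ± 16.1 CPM in NG2+ cells and 120 ± 11.0 CPM in GFAP+ cells, and Itch, a ubiquitin ligase, at 84.5 ± 11.9 CPM in NG2+ cells and 97.9 ± 12.3 CPM in GFAP+ cells. Dtx1, a Deltex protein that binds the Notch intracellular domain and a gene chosen here after its values were seen, had 96.9 ± 11.6 CPM in NG2+ cells (85.2 to 113) and 69.2 ± 10.4 CPM in GFAP+ cells (51.4 to 78.5), without overlap (log2 fold change 0.49, SE 0.12, edgeR adjusted p = 0.136 with Benjamini-Hochberg adjustment). Dtx1 passed with DESeq2 (adjusted p = 0.0155) and with voom (adjusted p = 0.0435), both with Benjamini-Hochberg adjustment. Mib1, the ubiquitin ligase that ligands need for their endocytosis, also chosen after its values were seen, averaged 43.7 ± 5.19 CPM in NG2+ cells and 56.7 ± 5.41 CPM in GFAP+ cells (log2 fold change −0.38, SE 0.11, edgeR adjusted p = 0.202 with Benjamini-Hochberg adjustment). Mib1 passed with voom (adjusted p = 0.0118 with Benjamini-Hochberg adjustment), where 8.9% of all genes passed.

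In the nuclear complex 5 of 14 genes had a positive and 9 a negative log2 fold change, with a median of −0.08. Its most abundant genes encode corepressors: Hdac2 had 941 ± 107 CPM in NG2+ cells and 850 ± 22.0 CPM in GFAP+ cells, Ctbp1 540 ± 78.3 CPM in NG2+ cells and 462 ± 43.0 CPM in GFAP+ cells, and Ncor1 338 ± 31.8 CPM in NG2+ cells and 391 ± 40.4 CPM in GFAP+ cells (SD, n = 5 each). Rbpj, the DNA-binding partner of the Notch intracellular domain, was added after its values were seen and averaged 79.7 ± 4.83 CPM in NG2+ cells and 83.6 ± 3.61 CPM in GFAP+ cells.

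Of the 10 targets and feedback genes, 3 had a positive and 7 a negative log2 fold change, with a median of −0.17, which was 0.068 with voom and −0.31 with the stricter filter. Fabp7, a radial glia gene that Notch activates, averaged 516 ± 152 CPM in NG2+ cells and 531 ± 108 CPM in GFAP+ cells, and Hes6, which opposes Hes1, 484 ± 58.4 CPM in NG2+ cells and 506 ± 39.4 CPM in GFAP+ cells (SD, n = 5 each). Hey1, a direct target, had 45.6 ± 8.63 CPM in NG2+ cells (32.8 to 52.4) and 64.2 ± 8.53 CPM in GFAP+ cells (54.4 to 77.7). The groups did not overlap in Hey1, and its log2 fold change was −0.49 (SE 0.14, edgeR adjusted p = 0.181 with Benjamini-Hochberg adjustment). Hey1 passed with voom (adjusted p = 0.0356 with Benjamini-Hochberg adjustment), where 8.9% of all genes passed. Hes5 and Hes1, the classic effectors, were named after their values were seen. Hes5 averaged 40.3 ± 15.1 CPM in NG2+ cells and 63.8 ± 20.2 CPM in GFAP+ cells, and Hes1 13.96 ± 2.96 CPM in NG2+ cells and 19.0 ± 6.97 CPM in GFAP+ cells. Hes1, Hes5 and Fabp7 are also in the radial glia list, so the target list and that marker list are not separate measurements.

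**Figure D5:**
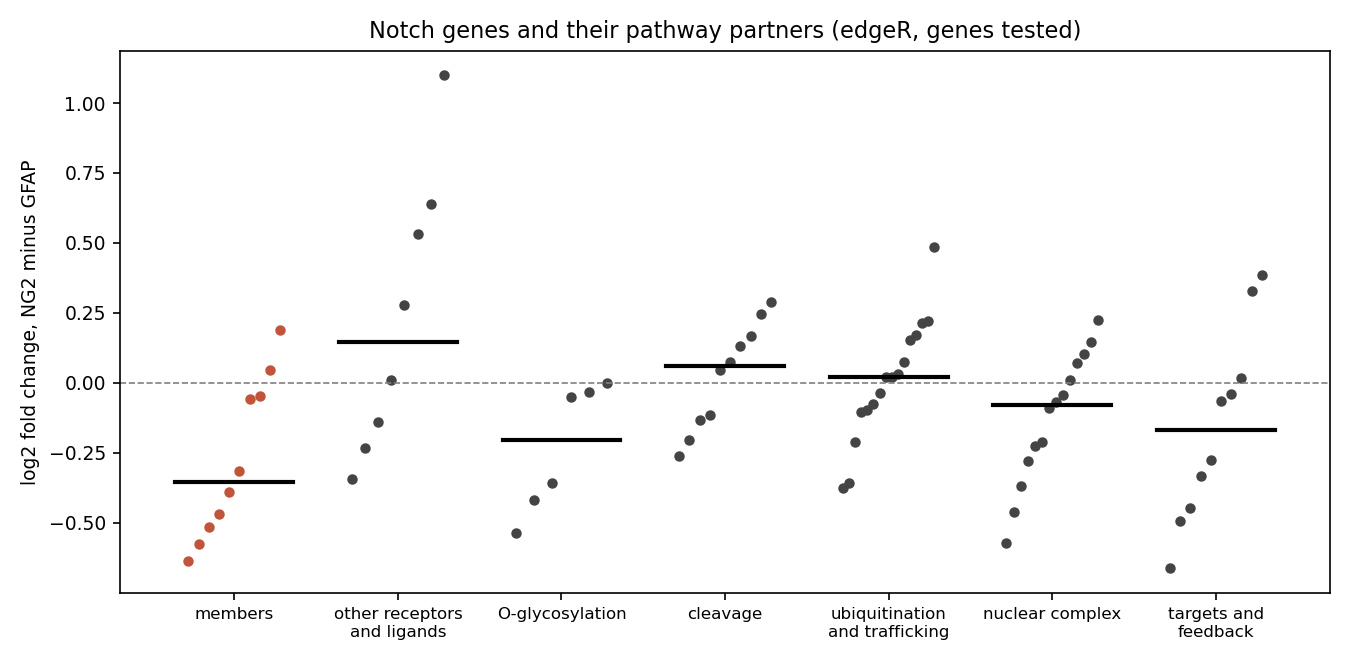
log2 fold change, NG2 minus GFAP, from edgeR for each tested gene of the members and of the 6 pathway lists (points, sorted within a list) with the median of each list (bar). In this fit the members have the lowest median, −0.35, and the other lists lie between −0.20 and 0.15. With the stricter filter the median of O-glycosylation was −0.372 and that of the members −0.365.

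Cell type marker lists were set beside the members. All 12 radial glia genes had a negative log2 fold change (median −0.36), as did 7 of 8 genes of intermediate progenitors (median −0.26), while all 8 neuronal genes had a positive one (median 0.33), and none of these passed the test. The sum of the 8 intermediate progenitor genes was 1776 to 1916 CPM in NG2+ cells and 2040 to 2390 CPM in GFAP+ cells, without overlap. Sums of the 7 microglial genes ran between 17.8 and 247 CPM in NG2+ cells and between 30.8 and 121 CPM in GFAP+ cells. Endothelial genes summed to 2.14 to 26.7 CPM in NG2+ cells and 5.65 to 31.5 CPM in GFAP+ cells, meningeal fibroblast genes to 3.68 to 18.4 CPM in NG2+ cells and 10.6 to 23.2 CPM in GFAP+ cells, and oligodendrocyte precursor genes to 1.04 to 12.6 CPM in NG2+ cells and 3.79 to 7.68 CPM in GFAP+ cells. No list had a gene at 0 in every library. The part of these markers in the members' values was not tested.

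In the authors' deposited table none of the 10 members passed an adjusted p of 0.05, where 332 of 28627 genes (1.16%) did. The adjusted p of the members in the authors' deposited table lay between 0.168 and 0.966.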

How the data were processed

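Amplified poly(A) RNA of 10 libraries was sequenced as paired ends. The authors deposited whole-number read counts per gene, not normalised; per the submitters' processing notes, HISAT2, featureCounts 1.5.0-p3 and GRCm38.p6 were used. No label or header states the strand setting or the annotation release, so 5 members whose span overlaps another gene are uncertain. The deposited FPKM values equalled count over gene length and a constant for each library. The authors' deposited table also held a mean signal for each group, a log2 fold change and a p-value, made with a tool that no label names. Its log2 fold changes of the members nearly equalled those of DESeq2 run here, with −0.457 for Notch1 and 0.203 for Rfng in both. The authors' values and the DESeq2 alternative are thus not separate checks. Counts were tested with edgeR 4.0.16 in R 4.3.3 (TMM, filterByExpr, quasi-likelihood, Benjamini-Hochberg adjustment over 16187 genes). The test was also run on simulated counts. Those held only fold changes larger than any of the members and only in well-expressed genes, so they do not show how well differences of the members' size are found. CPM used TMM-scaled library sizes. Alternatives were DESeq2 1.42.0, voom with sample weights in limma 3.58.1, no filter, a stricter filter of 5 CPM in 5 libraries, other scalings, a replicate block and leaving out each library. Amplification without molecular identifiers means that read counts are not counts of molecules. Every library counted once. Replicates within a group differed by more than sampling noise in all 20 pairs, which does not show that they came from separate embryos. Named genes were all members, Cspg4 and Gfap, called genes or else the 3 highest in CPM of each pathway list, and the 3 closest profiles; some genes that this rule names are not reported here. The members and lists were chosen with earlier results of these data known. Promoters were read from RefSeq tables.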

Additional observations from a re-analysis of the deposited data

Results flagged for a closer look

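Of 60 groups of 5 values examined (30 quantities in NG2 and in GFAP libraries), 5 held a library whose gap to the nearest of the others was large for the group's range by Dixon's criterion, and chance gives about 1 in 20 groups. Mfng was 172 CPM in NG2 1, below the other NG2 libraries at 222 to 235 CPM. The share of Rfng in the summed FPKM of the fringes was 31.0% in GFAP 2, below 36.7% to 38.2% in the other GFAP libraries. GFAP 2 was also apart in marker sums, with 3128 CPM for radial glia against 2085 to 2321 CPM in the other GFAP libraries, and 3943 CPM for neurons against 4756 to 5066 CPM. The sum of endothelial markers was 31.5 CPM in GFAP 1, against 5.65 to 11.4 CPM in the other GFAP libraries.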

How the results depend on the processing

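Of 561 values recomputed under alternatives, 509 stayed on their side of the threshold or, with no test, moved by less than the spread between libraries (1.5 times for a count), although 3 of these, all medians of pathway lists, changed sign. The direction of 7 members was the same in every alternative run. Jag1 was 0.13 and Jag2 −0.059 in log2 fold change with voom, Jag1 lay between −0.16 and 0.13 and Mfng between −0.083 and 0.019 on leaving out a library, and the cause was not tested. Dll1 passed with voom (−0.37) and without NG2 5, within −0.60 to −0.29 on leaving out a library. Genes called higher and lower over the whole table numbered 58 and 37 without a filter, 199 and 128 with DESeq2, 584 and 857 with voom, and 3 to 70 and 0 to 47 on leaving out a library. Members called lower numbered 1 with voom and 0 to 1 on leaving out a library. Pathway genes called higher numbered 1 without a filter, 1 with the stricter filter, 2 with DESeq2, 2 with voom and 0 to 1 on leaving out a library, and those called lower 1 with DESeq2 and 9 with voom. With voom, Dner and Dtx1 were called higher. Pofut1, Hey1, Mib1, Itch, Ncor1, Gxylt1, Maml3, Ep300 and Mfap2 were called lower with voom. The median of the other receptors and ligands was −0.12 with the stricter filter, −0.056 with voom and −0.10 to 0.28 on leaving out a library; that of O-glycosylation −0.37 with the stricter filter and −0.046 with voom; that of cleavage −0.010 with voom and −0.0096 to 0.099 on leaving out a library; that of targets and feedback 0.068 with voom, −0.31 with the stricter filter and −0.26 to −0.094 on leaving out a library; that of ubiquitination and trafficking −0.024 with library size only and −0.049 without NG2 5. Gfap lay between −0.64 and 0.023 on leaving out a library. No label states that the replicate numbers pair the libraries. Deviations of same-numbered libraries correlated at −0.021 to 0.083 over 5 pairs, and 1 NG2 library matched its own number best. A small effect shared by same-numbered libraries was not resolved. With a replicate block edgeR called 1 gene higher and 0 lower, and Cspg4 was 2.66 (adjusted p = 0.0574 with Benjamini-Hochberg adjustment). The lowest count in a library was 55 reads for Notch3, 65 for Jag1, 76 for Jag2 and 79 for Lfng, and intervals cover the spread of these libraries alone.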

Other observations

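Library GFAP 2 held the highest CPM of all 10 libraries for 6 of the 10 genes in the targets and feedback list. They were Hes1 at 31.4 CPM, Hes5 at 96.9 CPM, Hey1 at 77.7 CPM, Hes6 at 576 CPM, Id1 at 16.1 CPM and Nrarp, an inhibitor that Notch itself induces, at 20.1 CPM. GFAP 2 was also the highest library for 3 members, Jag1 at 9.86 CPM, Lfng at 15.1 CPM and Mfng at 249 CPM, and the lowest for Rfng at 105 CPM. At the other end, NG2 2 was the lowest library for 5 of the 10 genes in that list and for 2 receptors, Notch2 at 7.51 CPM and Notch3 at 3.79 CPM. The same libraries were the extremes of the radial glia sum, which was 1388 CPM in NG2 2, the lowest, and 3128 CPM in GFAP 2, the highest. Hes1, Hes5 and Fabp7 are in both the target list and that sum, so this match is partly built in. These counts were chosen after the values were seen and are given without a test. The share of all genes that were highest in GFAP 2 or lowest in NG2 2 is not given.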
